A study of Mus musculus with 31 samples.

Results

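Prolactin acts on the lactating mammary gland through its receptor, the kinase JAK2 and the transcription factors STAT5A and STAT5B. The 10 genes described here are Prlr, Jak2, Stat5a, Stat5b, Cish, Socs1, Socs2, Akt1, Ghr and Nr3c1, a fixed list of symbols that was matched to the gene identifiers of the count files, and all 10 were found among 55379 genes. Mammary gland RNA was sequenced from 31 C57BL/6J dams on day 10 of lactation, with 1 library per dam. The breeder diet held 4 mg/kg folic acid (FA) and the FA diet 24 mg/kg, each fed from before mating. Fluoxetine hydrochloride, an inhibitor of the serotonin transporter, was injected daily at 20 mg/kg body weight, or saline in its place, from embryonic day 13 until collection. By the labels, 8 dams had breeder diet + saline, 7 had breeder diet + fluoxetine, 8 had FA diet + saline and 8 had FA diet + fluoxetine. The study's methods give the sizes of the fluoxetine groups the other way round, and the labels were followed. All 4 groups, controls included, received daily injections.

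When prolactin binds, its receptor activates the bound JAK2, which phosphorylates STAT5, and STAT5 then enters the nucleus and turns on milk protein genes. STAT5 also turns on Cish and the Socs genes, whose products bind back to the receptor or to JAK2 and restrain the signal. The growth hormone receptor (Ghr) uses the same kinase and the same STAT5 proteins, AKT1 carries a survival and nutrient signal in the secretory cell, and the glucocorticoid receptor (Nr3c1) works together with STAT5 at casein genes. Messenger RNA does not show phosphorylation, so the activity of JAK2 and STAT5 was not measured. Whole gland was sequenced, so fewer cells of a type and less RNA per cell cannot be told apart.

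STAT5 binds the palindrome TTCNNNGAA. Paired sites before starts of the feedback genes Cish and Socs2 are shown here because both are known STAT5 targets, and the site of Jak2 is added. The 250 bases before each annotated transcript start (GENCODE vM39 on GRCm39) were searched for these letters, which read the same on both strands. Nr3c1 was not searched. Of 168710 such windows of protein-coding genes, 6.28% held the motif, and 22 of the 148 windows of the other 9 genes (14.9%) did. The 2 copies of a single pair of Socs2 lay in 15 and 14 of the 22, so this share leans on the starts annotated for Socs2. By gene, 4 of the 9 (Cish, Socs2, Prlr and Jak2) held the motif before any start, against 4541 of 21770 protein-coding genes. The 9 genes had more windows per gene (148 for 9) than all protein-coding genes (168710 for 21770). They thus had more places for a match, and the counts by gene are not on equal terms. The 148 windows overlap heavily within a gene and are not independent. Only 1 of the 168710 windows held 4 copies, and it belonged to Cish. The copies of Cish stand as 2 pairs on chromosome 9 (plus strand), and a pair of Socs2 stands on chromosome 10 (minus strand). All 3 pairs lie inside the exons of longer annotated transcripts and before the starts of shorter ones. At the start of the canonical transcript the motif was found in 7.70% of 21770 windows, and Jak2 on chromosome 19 (plus strand) was the only 1 of the 9 genes with it. Single copies before other starts of Socs2 (chr10:95253788-95253816 and chr10:95254141-95254169) and those before starts of Prlr are not shown. Capitals mark the motif.
Cish, chr9:107173853-107173882: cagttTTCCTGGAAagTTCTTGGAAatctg
Cish, chr9:107173961-107173990: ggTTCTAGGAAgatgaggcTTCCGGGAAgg
Socs2, chr10:95252761-95252790: gcggaTTCCTGGAAagTTCCTGGAAagcgg
Jak2, chr19:29228529-29228557: aagcggtcccTTCGCAGAAgtggtggtta
In the first Cish pair the copies are 2 bases apart, and in the second 8 bases. Starts other than the canonical one were searched after the canonical windows had been seen. A match of letters is not evidence that STAT5 was bound there in these glands.

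Libraries held between 15412542 and 36000439 counts. Keratin and adhesion markers of luminal epithelium (6 genes) summed to between 245 and 386 CPM (counts relative to library size after TMM scaling) in all 31 dams. Dam 3 of FA diet + fluoxetine stood apart: its 20 most abundant genes took 43.1% of the counts against 61.7 to 82.0% in the other 30 dams, and its fibroblast (937 against 52.1 to 296 CPM), adipocyte (860 against 151 to 412 CPM) and leukocyte markers (27.1 against 3.98 to 10.8 CPM) summed to the highest values of all dams. Its luminal sum was 343 CPM, in which Krt18 and Krt19 were at their highest of all dams and Epcam and Cldn7 at their lowest. Many values that rest on this dam are given with and without it below.

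None of the 10 genes differed between the drugs, between the diets or in the interaction of both at a false discovery rate (FDR) of 10% with the quasi-likelihood test of edgeR. Among all 14362 genes tested, 0.0209% (3 genes) passed that FDR for fluoxetine, 0% for FA and 0% for the interaction. At an unadjusted p of 0.05 or below, 1 of the 10 (Socs2) passed for fluoxetine, against 9.92% of all genes, 0 of the 10 for FA against 5.08%, and 0 of the 10 for the interaction against 3.84%. A share of 1 in 10 is near the background for fluoxetine. The counts of the 10 at that p were the same with the likelihood ratio test and with DESeq2. For fluoxetine the count was 2 with luminal marker scaling, with the replicate number as a block and without both libraries of lowest top-20 share, and for FA it was 1 with the block. For fluoxetine 2 of the 10 log2 fold changes were above 0 and 8 below, with a median of -0.08 against 0.02 over all genes. For FA 3 were above and 7 below 0 (median -0.02, all genes 0.02). For the interaction 4 were above and 6 below 0 (median -0.03, all genes 0.03). Without dam 3 of FA diet + fluoxetine, 9 of the 10 could be tested, and the median was -0.12 for fluoxetine and -0.05 for FA. With counts scaled to the luminal marker sum of each dam, 9 of the 10 were above 0 for the interaction, where the median of all genes shifted by 0.13. With upper quartile scaling 5 of the 10 were above 0 for FA.

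**Figure D1:**
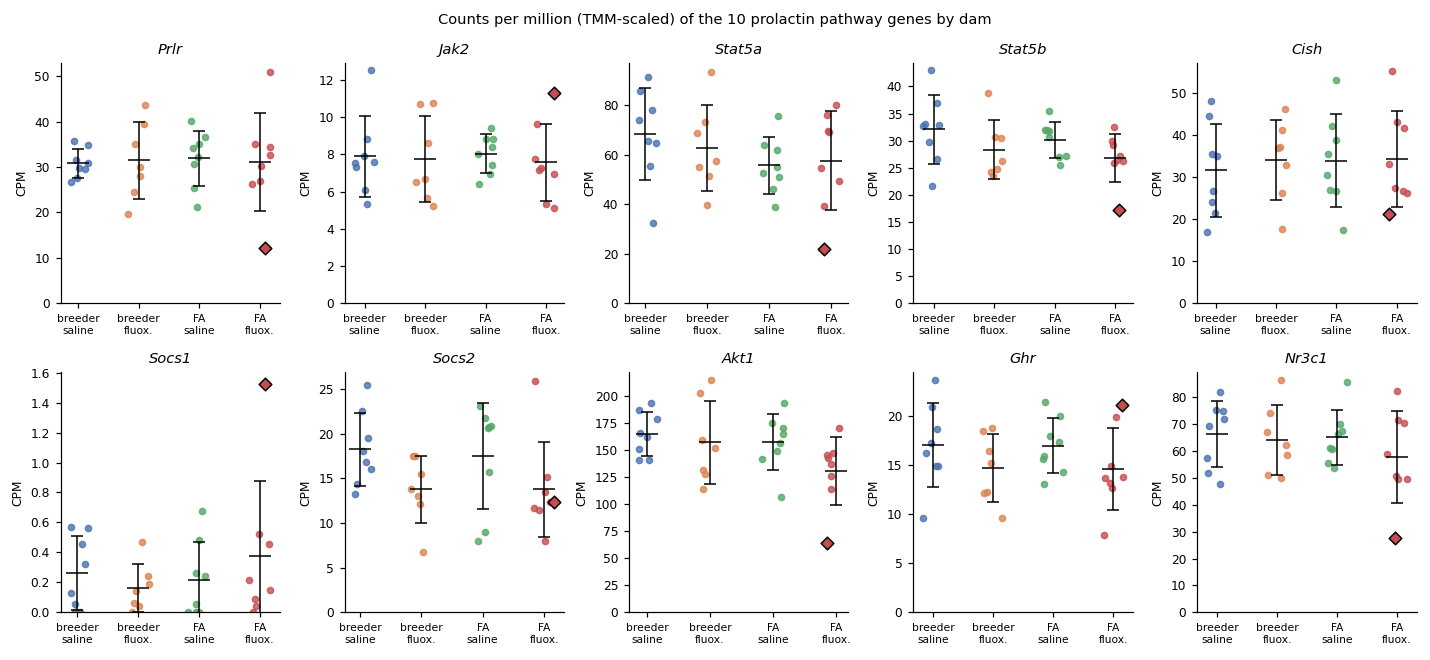
CPM of the 10 genes by dam, 1 panel per gene, with the 4 groups on the horizontal axis. Points are dams, bars are the mean and SD of a group, and the outlined diamond is dam 3 of FA diet + fluoxetine. The 4 groups overlap in every panel. The diamond is the lowest point for Prlr, Stat5a, Stat5b, Akt1 and Nr3c1 and the highest for Socs1.

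Per kilobase of the canonical transcript, Akt1 had the highest level (median 46.8 CPM per kb), followed by Stat5a (15.7), Nr3c1 (9.59), Cish (9.12), Socs2 (6.11), Stat5b (5.84), Ghr (3.48), Prlr (2.97), Jak2 (1.37) and Socs1 (0.046). Akt1 lay above Stat5a in 31 of 31 dams, and Jak2 above Socs1 in 31 of 31. Nr3c1 lay above Cish in 18 of 31 dams, and Socs2 above Stat5b in 18 of 31, so these neighbours were not ordered beyond their spread. The order depends on the length used: per kilobase of all annotated exons the order was Akt1, Nr3c1, Stat5a and Cish at the top, with Socs2 at place 9. Of the exon bases of Akt1, 52.9% are shared with other genes, mostly on the opposite strand, and of Cish 26.3%. The strand setting of the counting was not given in the sources used here, so how reads in the shared bases of Akt1 and Cish were counted is not known.

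Prlr, the prolactin receptor (chromosome 15, 10177258 to 10349959, plus strand, GRCm39), had nearly the same mean in every group. With breeder diet + saline it ranged from 26.8 to 35.7 CPM (median 30.2), with breeder diet + fluoxetine from 19.7 to 43.8 (median 30.01), with FA diet + saline from 21.3 to 40.2 (median 33.1), and with FA diet + fluoxetine from 12.3 to 50.9 CPM (median 31.5). The groups overlapped fully, and the lowest and the highest of all 31 dams were both in FA diet + fluoxetine. The SD was 3.17 CPM with breeder diet + saline and 10.8 CPM with FA diet + fluoxetine, where it includes dam 3 at 12.3 CPM. Fluoxetine gave a log2 fold change of -0.0034 (SE 0.13, 95% interval -0.27 to 0.26, adjusted p = 0.996 by the edgeR quasi-likelihood test), and for FA 0.02 (interval -0.25 to 0.28). Without dam 3 of FA diet + fluoxetine these were 0.04 and 0.07.

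Ghr, the growth hormone receptor (chromosome 15, 3347235 to 3613024, minus strand), averaged 17.0 ± 3.48 CPM (SD, n = 16) in saline dams and 14.6 ± 3.72 CPM (n = 15) in fluoxetine dams. Fluoxetine dams lay below the saline median of their own diet in 11 of 15 cases. The log2 fold change was -0.21 (SE 0.12, unadjusted p = 0.0981, adjusted p = 0.574, edgeR). Without dam 3 of FA diet + fluoxetine, whose 21.1 CPM was the highest of its group, it was -0.27 (unadjusted p = 0.0325). Both values miss the FDR of 10%. For FA the log2 fold change was -0.0065.

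Jak2, the kinase that both receptors use (chromosome 19, 29228677 to 29290505, plus strand), had low counts, between 5.11 and 12.5 CPM. Its group means ran from 7.57 ± 2.07 CPM (SD, n = 8) with FA diet + fluoxetine to 8.03 ± 1.04 CPM (n = 8) with FA diet + saline, closer together than the SD of either. The highest values were 12.5 CPM in dam 3 of breeder diet + saline and 11.3 CPM in dam 3 of FA diet + fluoxetine. Its log2 fold change was -0.06 for fluoxetine (interval -0.32 to 0.20) and -0.0020 for FA (interval -0.26 to 0.26). Without dam 3 of FA diet + fluoxetine these were -0.12 and -0.06.

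Stat5a and Stat5b, the transcription factors of the pathway, are neighbours on chromosome 11 (Stat5a 100750177 to 100776065, plus strand; Stat5b 100671556 to 100741589, minus strand) with 8587 bases between them. Their coding sequences are much alike, so reads that fit both may have been lost in counting. Per kilobase of canonical transcript Stat5a was 2.66 ± 0.54 times Stat5b (SD, n = 31, range 1.64 to 3.93). Per kilobase of all exons this ratio was 1.73.

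Stat5a ranged from 32.6 to 91.4 CPM with breeder diet + saline (median 69.96), from 39.7 to 93.6 with breeder diet + fluoxetine (median 57.6), from 39.0 to 75.9 with FA diet + saline (median 53.9) and from 22.04 to 80.1 with FA diet + fluoxetine (median 62.0). The 4 groups overlapped across most of their ranges. Breeder diet dams averaged 65.9 ± 17.7 CPM (SD, n = 15) and FA diet dams 56.7 ± 15.8 CPM (n = 16). FA gave a log2 fold change of -0.21 (SE 0.15, adjusted p = 0.940, edgeR), and 11 of 16 FA dams lay below the breeder diet median of their own drug. For fluoxetine it was -0.04. Without dam 3 of FA diet + fluoxetine, the lowest of all dams, it was -0.15 for FA and 0.01 for fluoxetine.

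Stat5b averaged 31.1 ± 5.03 CPM (SD, n = 16) in saline dams and 27.5 ± 4.83 CPM (n = 15) in fluoxetine dams. With breeder diet + saline it ranged from 21.7 to 43.0 CPM (median 32.8), with breeder diet + fluoxetine from 23.4 to 38.8 (median 26.2), with FA diet + saline from 25.5 to 35.4 (median 31.2) and with FA diet + fluoxetine from 17.3 to 32.4 CPM (median 26.8). The ranges overlapped, and 13 of 15 fluoxetine dams lay below the saline median of their diet. Fluoxetine gave a log2 fold change of -0.18 (SE 0.09, interval -0.37 to 0.02, unadjusted p = 0.0722, adjusted p = 0.543, edgeR), and without dam 3 of FA diet + fluoxetine -0.15 (unadjusted p = 0.0907).

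Cish, a STAT5 target that feeds back on the receptor (chromosome 9, 107173225 to 107179983, plus strand), had a coefficient of variation of 30.9% over the 31 dams, where Prlr had 23.2%. Values ranged from 16.9 to 48.2 CPM with breeder diet + saline (median 30.99), from 17.8 to 46.3 with breeder diet + fluoxetine (median 37.1), from 17.5 to 53.3 with FA diet + saline (median 33.1) and from 21.3 to 55.3 with FA diet + fluoxetine (median 30.3). These ranges nearly coincide. Its log2 fold change was 0.06 for fluoxetine (SE 0.16, interval -0.27 to 0.39) and 0.06 for FA (interval -0.27 to 0.39).

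Socs2, another STAT5 target and an inhibitor of growth hormone receptor signalling (chromosome 10, 95219523 to 95253929, minus strand), was the only one of the 10 whose unadjusted p reached 0.05. With breeder diet + saline it ranged from 13.2 to 25.4 CPM (median 17.5), with breeder diet + fluoxetine from 6.80 to 17.5 (median 13.8), with FA diet + saline from 8.01 to 23.1 (median 20.7) and with FA diet + fluoxetine from 7.96 to 25.9 CPM (median 12.3). The groups overlapped on both diets, and the highest of all 31 dams was a fluoxetine dam, dam 2 of FA diet + fluoxetine. Fluoxetine dams averaged 13.8 ± 4.47 CPM (SD, n = 15) and saline dams 17.9 ± 4.95 CPM (n = 16), and 13 of 15 fluoxetine dams lay below the saline median of their diet.

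The log2 fold change of Socs2 for fluoxetine was -0.38 (SE 0.16, interval -0.70 to -0.05, a fold of 0.770); its unadjusted p was 0.0221 and its adjusted p 0.442 (edgeR quasi-likelihood test), so it did not pass the FDR of 10%. On the breeder diet alone it was -0.41 (unadjusted p = 0.0790) and on the FA diet alone -0.34 (unadjusted p = 0.124, and -0.46 with unadjusted p = 0.0537 in 7 same-numbered pairs of dams with the pair as a block), and the difference between the diets was 0.07 (interval -0.58 to 0.71). Leaving out 1 library at a time gave values from -0.47 to -0.32. The adjusted p was lowest, at 0.180, without dam 2 of FA diet + fluoxetine. Among the marker lists, 3 of 6 myoepithelial genes were lower with fluoxetine at an unadjusted p of 0.05 or below, and their sum was 444 ± 80.4 CPM with saline and 360 ± 93.4 CPM with fluoxetine. With all dams, 4 of 6 fibroblast genes were above and 2 below 0 for fluoxetine, with 0 at an unadjusted p of 0.05 or below. Without dam 3 of FA diet + fluoxetine, all 6 were below 0, and 5 of them were at that p. The direction of the fibroblast genes therefore depended on that dam. Between dams of the same group, Socs2 correlated with the myoepithelial sum at r = 0.34 (adjusted permutation p = 0.244). With the fibroblast sum r was -0.11 (adjusted permutation p = 0.787). The part of these cells in the difference of Socs2 between the drugs was not tested. For FA the log2 fold change of Socs2 was -0.03 (interval -0.35 to 0.29).

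Socs1, an inhibitor that binds JAK kinases (chromosome 16, 10600104 to 10603875, minus strand), was near the limit of detection, with 236 counts over all libraries and 0 counts in 7 of the 31. A count of 0 allows up to 3 counts, which is between 0.0524 and 0.243 CPM by library and covers counting error only. Of the 236 counts, 87 came from dam 3 of FA diet + fluoxetine, at 1.52 CPM against 0 to 0.679 CPM in the other dams. The log2 fold change for the interaction was 1.41 (SE 1.26, interval -1.17 to 3.99), and without that dam Socs1 no longer passed the filter on low counts. A difference in Socs1 was not detectable at this depth.

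Akt1, the kinase of the survival arm (chromosome 12, 112620248 to 112645654, minus strand), averaged 161 ± 22.9 CPM (SD, n = 16) in saline dams and 143 ± 36.3 CPM (n = 15) in fluoxetine dams. Its lowest group mean was 131 ± 31.7 CPM (n = 8) with FA diet + fluoxetine and its highest 165 ± 20.3 CPM (n = 8) with breeder diet + saline. Its log2 fold change was -0.17 for fluoxetine (SE 0.11, adjusted p = 0.634, edgeR) and -0.17 for FA (SE 0.11, adjusted p = 0.934, edgeR). Without dam 3 of FA diet + fluoxetine, at 64.1 CPM against 107 to 215 CPM in the others, these were -0.13 and -0.12.

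Nr3c1, the glucocorticoid receptor (chromosome 18, 39543598 to 39652474, minus strand), averaged 65.7 ± 10.9 CPM (SD, n = 16) in saline dams and 60.7 ± 15.2 CPM (n = 15) in fluoxetine dams. Its log2 fold change was -0.11 for fluoxetine (interval -0.35 to 0.13) and -0.09 for FA (interval -0.33 to 0.15). Dam 3 of FA diet + fluoxetine had 27.7 CPM, against 47.8 to 86.5 CPM in the other 30 dams, and without it these were -0.07 and -0.05.

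**Figure D2:**
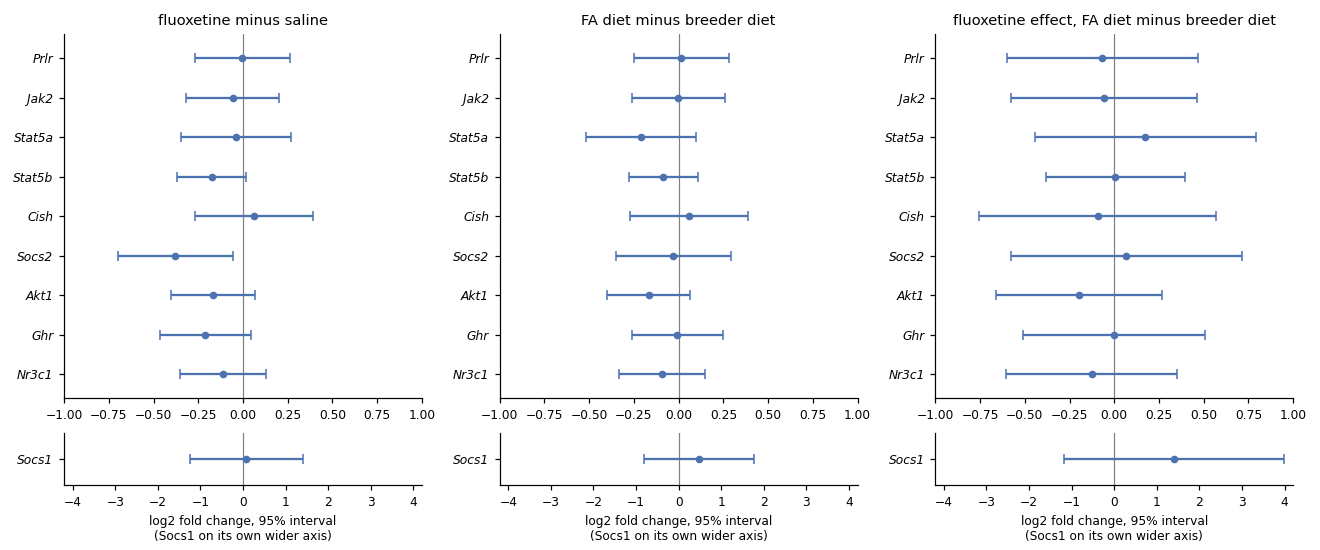
Log2 fold changes (horizontal axis) with 95% intervals of the 10 genes for fluoxetine, for FA and for the difference of the fluoxetine effect between the diets, from the edgeR fit to all 31 libraries. Of the 30 intervals only that of Socs2 for fluoxetine, -0.70 to -0.05, leaves out 0. Socs1 is drawn on a wider axis.

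For the 9 genes other than Socs1 the standard error for fluoxetine or FA lay between 0.09 (Stat5b) and 0.16 (Cish) on the log2 scale. The standard errors of the interaction ran from 0.19 (Stat5b) to 0.32 (Cish). A p that misses the threshold does not show that the groups were alike.

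The ligand genes Prl and Gh were not detected at this depth, with 0 counts in all 31 libraries, which allows up to 0.0524 to 0.243 CPM by library. Of the other JAK kinases, Jak1 was the most abundant per length (5.74 ± 1.29 CPM per kb, SD, n = 31). Jak1 averaged 35.2 ± 7.60 CPM with saline and 29.4 ± 5.83 CPM with fluoxetine (log2 fold change -0.25, unadjusted p = 0.0248, adjusted p = 0.458, edgeR). Jak3, which is best known from leukocytes, averaged 10.1 ± 3.56 CPM with saline and 13.9 ± 4.64 CPM with fluoxetine (0.46, unadjusted p = 0.00851, adjusted p = 0.393, edgeR), and in 13 of 15 fluoxetine dams it was above the median of saline dams on that diet. Jak3 had its highest value, 25.8 CPM, in dam 3 of FA diet + fluoxetine, and its log2 fold change without that dam was 0.35. Tyk2 had 0.19 (unadjusted p = 0.190). The leukocyte marker sum was 7.65 ± 1.19 CPM with saline and 8.54 ± 5.43 CPM with fluoxetine, or 7.21 ± 1.81 CPM without dam 3 of FA diet + fluoxetine, and its part in the Jak3 values was not tested.

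Of 5 other STAT genes 4 passed the filter, and all 4 had log2 fold changes above 0 for fluoxetine (median 0.13, and 0.08 without dam 3 of FA diet + fluoxetine). Stat2, which carries interferon signals, averaged 17.7 ± 5.71 CPM with saline and 23.5 ± 8.52 CPM with fluoxetine (0.42, unadjusted p = 0.0153, adjusted p = 0.417, edgeR). Stat3, which drives involution after weaning and shares exon bases with Stat5a on the opposite strand, was the most abundant of them per length (10.1 ± 3.46 CPM per kb). Among 5 other SOCS genes, Socs4 was the most abundant per length, at 1.08 ± 0.24 CPM per kb, and Socs7 was the only one with an unadjusted p of 0.05 or below, for FA (6.24 ± 1.24 CPM on the breeder diet, 4.89 ± 1.34 CPM on the FA diet, log2 fold change -0.34, adjusted p = 0.933, edgeR). Of 11 phosphatases, PIAS proteins and other inhibitors, 7 were above and 4 below 0 for fluoxetine, with 0 at an unadjusted p of 0.05, and without dam 3 of FA diet + fluoxetine 6 were above and 5 below 0, with 1 at that p. Cav1, the coat protein of caveolae and a known inhibitor of JAK2 in the gland, averaged 26.5 ± 4.06 CPM on the breeder diet and 33.2 ± 5.91 CPM on the FA diet, and 15 of 16 FA dams lay above the breeder median of their drug (log2 fold change 0.33, unadjusted p = 0.00144, adjusted p = 0.933, edgeR). Under FA, 3 of 6 myoepithelial markers were also higher at an unadjusted p of 0.05 or below, with and without dam 3 of FA diet + fluoxetine, and their sum was 368 ± 70.6 CPM on the breeder diet and 437 ± 106 CPM on the FA diet. Of 6 fibroblast markers 6 were above 0 with 2 at that p, and without that dam 4 were above 0 with 0 at that p. Of 5 endothelial markers 4 were above 0, with and without that dam, and 0 at that p. Of 6 adipocyte markers 4 were above 0, or 2 without that dam, and 0 at that p. The part of these cells in the Cav1 values was not tested.

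In the PI3K-AKT arm, 9 of 21 genes were above and 12 below 0 for fluoxetine, and 4 above and 17 below 0 for FA (median -0.05, all genes 0.02). With dam 3 of FA diet + fluoxetine left out, the FA counts were 2 above and 19 below 0 (median -0.09, all genes -0.0052). Pik3r1, a regulatory subunit of PI3-kinase, was the most abundant per length (11.3 ± 3.08 CPM per kb). Sh2b1, an adaptor that binds JAK2, averaged 17.3 ± 3.38 CPM on the breeder diet and 14.03 ± 3.75 CPM on the FA diet (-0.31, unadjusted p = 0.0113). Tsc1, a brake on mTOR, had 0.60 for the interaction (unadjusted p = 0.0359), which was 0.40 (unadjusted p = 0.107) without dam 3 of FA diet + fluoxetine. In the RAF-MEK-ERK arm Mapk3 had 0.31 for fluoxetine (unadjusted p = 0.0345), which was 0.12 (unadjusted p = 0.170) without that dam. Osmr, the oncostatin M receptor, had 0.84 (unadjusted p = 0.00675) and 0.37 without it (unadjusted p = 0.0438). None of these passed the FDR of 10%. Map2k2 was the most abundant of the ERK arm per kilobase of canonical transcript (27.9 ± 3.88 CPM per kb), where Mapk3 was higher per kilobase of all exons (8.50 against 6.77 CPM per kb). Ifngr1, an interferon gamma receptor chain, was the most abundant per length of the 12 other receptors that signal through JAK kinases (20.7 ± 3.99 CPM per kb).

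The 7 milk protein genes, the main output of STAT5 in this tissue, were all below 0 for fluoxetine (median log2 fold change -0.20) and all above 0 for FA (median 0.09). Of all genes tested, 53.52% were above 0 for fluoxetine (median 0.02) and 53.93% for FA (median 0.02). For FA, 0 of the 7 had an unadjusted p of 0.05 or below. Leaving out dam 3 of FA diet + fluoxetine, these medians were -0.13 and 0.17, and the direction held for all 7. Csn3, the kappa casein, was the only one with an unadjusted p of 0.05 or below for fluoxetine: it averaged 42798 ± 7957 CPM with saline and 31307 ± 9983 CPM with fluoxetine (-0.44, unadjusted p = 0.0375, adjusted p = 0.481, edgeR), and 14 of 15 fluoxetine dams lay below the saline median of their diet. Without that dam it was -0.36 (unadjusted p = 0.000982), and 2 of the 7 were then at an unadjusted p of 0.05 or below. Wap, the whey acidic protein, was the most abundant of the 7 per length. These 7 genes were measured in the same libraries and are not independent of each other.

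Of 8 further STAT5 targets 6 passed the filter. Elf5, the transcription factor that drives secretory cells, was the most abundant of them per length (249 ± 49.3 CPM per kb). Pim1, a survival kinase, averaged 62.2 ± 22.6 CPM on the breeder diet and 39.5 ± 15.4 CPM on the FA diet, and 14 of 16 FA dams lay below the breeder median of their drug (-0.65, unadjusted p = 0.00236, adjusted p = 0.933, edgeR). Of 14 genes of the glucocorticoid response and of the chaperones of its receptor, 13 passed the filter, and 9 of them were below 0 for fluoxetine (median -0.14). Leaving out dam 3 of FA diet + fluoxetine, 10 of the 13 were below 0 (median -0.24). Sgk1, an ion transport kinase induced by glucocorticoids, averaged 68.5 ± 31.2 CPM with saline and 44.5 ± 24.2 CPM with fluoxetine (-0.66, unadjusted p = 0.0117, adjusted p = 0.409, edgeR). Klf9, another glucocorticoid target, had -0.31 (unadjusted p = 0.0328). Hsp90aa1, a chaperone of the receptor, had 0.25 (unadjusted p = 0.0456), and 0.19 without dam 3 of FA diet + fluoxetine (unadjusted p = 0.108). Fkbp4, a co-chaperone, had -0.51 for the interaction (unadjusted p = 0.0296). Hsp90ab1 was the most abundant of the list per length (92.1 ± 14.2 CPM per kb).

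Between dams of the same group, some of the 10 genes varied together. Deviations of log2 CPM (prior count 2) from the group means were correlated over the 31 dams for all 45 pairs, with 100000 permutations and Benjamini-Hochberg adjustment over the 45, and 5 pairs had both adjusted values at 0.05 or below. Stat5a and Stat5b went together (Pearson r = 0.81, permutation p = 0.0001, adjusted p = 0.000225; Spearman rho = 0.71, p = 0.0001, adjusted p = 0.00090), where 0.0001 is the smallest value printed. Without the 2 dams farthest from the median of Stat5a, r was 0.66. The points share 1 library per dam and its scaling, and these 2 genes also share sequence.

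Jak2 went against Stat5a (r = -0.68, permutation p = 0.0001, adjusted p = 0.00075; rho = -0.66, permutation p = 0.00012, adjusted p = 0.0027) and against Stat5b (r = -0.58, adjusted permutation p = 0.00577; rho = -0.49, adjusted permutation p = 0.0443). Without the 2 dams farthest from the median of Jak2, r was -0.52 and -0.36. With counts scaled to the luminal marker sum of each dam, r was -0.42 and -0.29, and neither pair passed (adjusted permutation p = 0.225 and 0.353). Both Jak2 relations therefore depend on the scaling. Dam 3 of breeder diet + saline, with the highest Jak2 of all dams, also had the lowest Stat5a of the 30 dams other than dam 3 of FA diet + fluoxetine.

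Prlr and Nr3c1 went together (r = 0.75, adjusted permutation p = 0.000225; rho = 0.60, adjusted permutation p = 0.0081), as did Akt1 and Nr3c1 (r = 0.63, adjusted permutation p = 0.00306; rho = 0.54, adjusted permutation p = 0.0237). Without the 2 dams farthest from the median of Prlr or Akt1, r was 0.52 and 0.44. With dam 3 of FA diet + fluoxetine left out, r was 0.58 for Prlr and Nr3c1 and 0.39 for Akt1 and Nr3c1 (adjusted permutation p = 0.152), so that 4 in place of 5 pairs passed. Cish and Socs2, the 2 genes with paired motifs, had r = 0.40 (adjusted permutation p = 0.0852) and rho = 0.50 (adjusted permutation p = 0.0443), so only the rank correlation passed. Prlr and Cish, its feedback inhibitor, were not among the pairs that passed. Of 70 relations between the 10 genes and the 7 marker sums, a family chosen after seeing the data, 0 had both adjusted permutation values at 0.05 or below. Some passed by Pearson r alone. These were Prlr with the adipocyte (-0.59) and leukocyte sums (-0.63), Nr3c1 with the adipocyte sum (-0.61) and Ghr with the luminal sum (0.55). Each had an adjusted permutation p of 0.0322 for r and 0.260 for rho. Without dam 3 of FA diet + fluoxetine, r was -0.32, -0.30, -0.39 and 0.54 in that order.

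**Figure D3:**
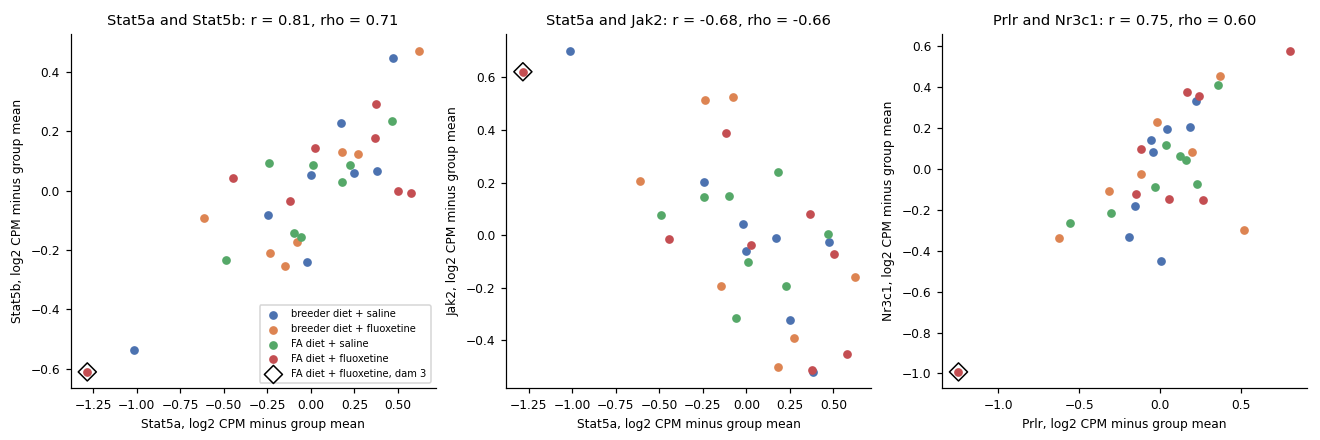
Log2 CPM of 3 pairs of genes as deviations from the group means, with 1 point per dam and the 4 groups in colour. The open diamond is dam 3 of FA diet + fluoxetine. Stat5a and Stat5b lie along a rising line (r = 0.81), Stat5a and Jak2 along a falling one (r = -0.68), and Prlr and Nr3c1 along a rising one (r = 0.75) whose lower end is the diamond.

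By the same measure over all genes past the filter, the genes most like Prlr were Atp2c1 (r = 0.90), Pcmtd1 (0.88) and Cop1 (0.87). Atp2c1 encodes a calcium and manganese pump of the Golgi. The genes most like Stat5a were Esyt3 (0.92), Acaca (0.86), which encodes acetyl-CoA carboxylase of fatty acid synthesis, and Large2 (0.86). The genes most like Cish were Nfkbiz (0.72), Zfp612 (0.68) and Stard13 (0.68), and those most like Socs2 were Pld1 (0.68), Cep83os (0.67), which lies on chromosome 10 as Socs2 does, and Senp6 (0.66). These are descriptions over 31 dams, with no test. Without dam 3 of FA diet + fluoxetine, Atp2c1 and Esyt3 were still first for Prlr (0.82) and Stat5a (0.88), while for Socs2 the first was Tor3a (0.76).

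Dam 3 of FA diet + fluoxetine had the lowest value of all 31 dams for 5 of the 10 genes, namely Prlr (12.3 against 19.7 to 50.9 CPM), Stat5a (22.04 against 32.6 to 93.6), Stat5b (17.3 against 21.7 to 43.0), Akt1 and Nr3c1, while Jak2 was second highest and Socs2, at 12.3 CPM, lay inside the range of its group. It was also lowest for 3 and highest for 6 of 21 genes in the PI3K-AKT arm, and for 3 and 1 of 5 in the RAF-MEK-ERK arm. The share over all genes was not taken. Such ranks depend on the scaling of this library. In its 18919573 counts, 701 counts of Prlr made 12.3 CPM. In dam 4 of its group, with 22465259 counts, 805 counts made 30.2 CPM. Relative to total counts alone, Prlr was thus not lower in dam 3 than in dam 4, and their order in CPM rests on the TMM scaling. The 5 of 10 describes scaled values of this library and is not a result about the pathway. The same 5 were still at their lowest in dam 3 when counts were scaled to the luminal marker sum. The markers in that sum went opposite ways in this dam. Krt18 (149 CPM) and Krt19 (63.2 CPM) were at the highest of all dams. Epcam (41.1 CPM) and Cldn7 (15.9 CPM) were at the lowest. The scaled values therefore do not show levels relative to its luminal cells. The milk protein genes were lowest there in 7 of 7 cases, with Csn2, the beta casein, at 13531 CPM against a median of 162080 CPM in the others and Wap at 14614 CPM against 202000 CPM. Elf5 was also lowest, at 149 against 420 to 740 CPM. Highest of all dams were Socs3, an inhibitor of STAT3 signalling (17.8 against 0.324 to 7.37 CPM), Osmr (31.7 against 1.68 to 8.80 CPM), Wnt4, which signals between mammary epithelial cells (10.8 against 0.264 to 2.74 CPM), and Bcl2l1, a survival factor (38.6 against 4.98 to 14.98 CPM). This is 1 library with no repeat, and the part of its higher fibroblast, adipocyte and leukocyte sums in these values was not tested.

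**Figure D4:**
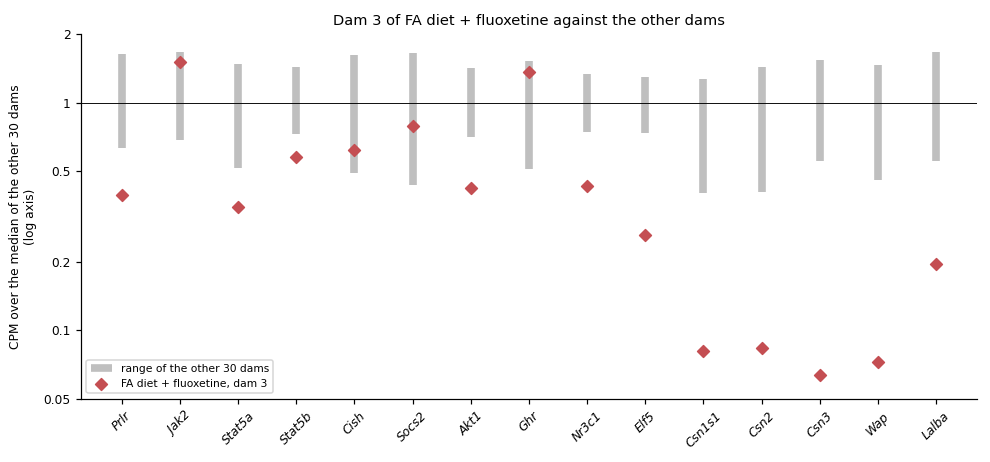
CPM of dam 3 of FA diet + fluoxetine (diamonds) over the median of the other 30 dams, on a log axis, with grey bars for the range of those 30. The 5 diamonds for Prlr, Stat5a, Stat5b, Akt1 and Nr3c1 lie under their bars, as do those for Elf5 and for the 5 milk protein genes drawn, while those for Jak2, Cish, Socs2 and Ghr lie inside them.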

How the data were processed

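The authors made poly-A libraries, sequenced them on an Illumina NovaSeq, trimmed reads (Trim Galore 0.4.4), aligned them to GRCm39 with HISAT2 and deposited raw read counts per Ensembl gene from HTSeq, without normalization. The annotation release and strand setting were not given in the sources used here. Symbols and positions were taken from GENCODE vM39, which lacked 667 of the 55379 identifiers.

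Counts were fitted in edgeR 4.0.16 (R 4.3.3), with filterByExpr by group (14362 genes kept, 41017 removed), TMM and robust dispersions. The model had the 4 groups and 27 residual degrees of freedom. Fluoxetine and FA effects were averaged over the other factor, tested by quasi-likelihood, and adjusted by Benjamini-Hochberg over all genes tested, with an FDR of 10%. Scripts were tested on simulated data. Alternatives were the likelihood ratio test, DESeq2 1.42.0, other normalizations and filters, single effects, a replicate block and each library left out. Leaving out both libraries of lowest top-20 share was chosen after seeing the data. Groups follow the labels. What the numbers in the labels mark was not given. Deviations of all 7 same-numbered pairs of FA diet + saline and FA diet + fluoxetine correlated at 0.123 to 0.429. For other numbers the median was -0.00699, over all pairs of groups and not these 2 alone. Breeder diet + saline exceeded 0.1 in 2 of 7 same-numbered pairs with FA diet + fluoxetine (-0.105 to 0.284). With FA diet + saline it did so in 3 of 7 (-0.22 to 0.234). Breeder diet + fluoxetine did so in no pair. The fit of FA diet dams with the number as a block was added after seeing the data.

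The 10 genes, the pathway and marker lists and the tests were chosen with earlier results of these data known. From each pathway list, genes were named where the unadjusted p was at most 0.05 (up to 5 per contrast), where the level per length was the highest, or where 3 or fewer genes passed the filter, and the 3 genes of highest r were named for likeness. Socs3, Wnt4, Bcl2l1, Csn2 and Tor3a were named after their values were seen. Libraries of 1 group differed by more than sampling noise (lowest chi-square per degree of freedom 15.8 over 105 pairs). Depth ran from 15412542 to 36000439 counts.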

Additional observations from a re-analysis of the deposited data

Results flagged for a closer look

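The highest or lowest dam of a group was compared with the rest of its group for the 10 genes in 40 groups, of which chance flags about 1 in 20, and 3 stood out by the gap to the nearest dam over the range of the group. Stat5b was lowest in dam 3 of FA diet + fluoxetine, at 17.27 CPM against 25.80 CPM in the nearest dam of its group (gap over range 0.563, limit 0.526). Socs1 was highest in the same dam, at 1.521 CPM (87 counts) against 0.5259 CPM (gap over range 0.654). Socs2 was highest in dam 2 of FA diet + fluoxetine, at 25.93 CPM against 15.12 CPM (gap over range 0.602). No interaction of the 10 genes passed the FDR of 10% in edgeR, so no difference of effects between the diets is listed.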

How the results depend on the processing

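None of the 30 effects of the 10 genes passed the FDR of 10% in any setting: over 378 values from 17 settings the lowest adjusted p was 0.301, and over 912 values with 1 library left out it was 0.180. Direction was kept in 343 of the 378 and in 804 of the 912; the cause of the changes of sign was not tested. For other genes named, 284 of 290 and 666 of 682 kept it. Over all genes, fluoxetine called 3 genes with the quasi-likelihood test, 45 with the likelihood ratio test, 70 with DESeq2, 1 without the filter on low counts and 0 with the replicate block; FA and the interaction called 0 with each.

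Changed signs, as log2 fold changes, were these. For the interaction of Ghr, DESeq2 gave 0.003741, RLE scaling 0.003603, upper quartile scaling 0.004243 and leaving out the 20 most abundant genes 0.001889. Upper quartile scaling gave 0.008078 for Jak2 and 0.002449 for Ghr under FA. Scaling to the luminal marker sum gave -0.05046 for Socs1 under fluoxetine and 0.002332 for Jak2 under FA, and for the interaction 0.07166 (Prlr), 0.06045 (Jak2), 0.02659 (Cish), 0.1104 (Ghr) and 0.01637 (Nr3c1); it raised the share of all genes above 0 for the interaction from 53.99% to 68.82%, and the pairs of the 10 genes that passed from 5 to 10. On the breeder diet alone fluoxetine gave 0.0306 for Prlr and -0.6284 for Socs1, and on the FA diet alone 0.04602 for Stat5a. In saline dams alone FA gave 0.02688 for Jak2 and -0.2306 for Socs1, and in fluoxetine dams alone -0.01867 (Prlr), 0.004259 (Socs2), -0.04442 (Jak1) and 0.1252 (Tyk2). Without both libraries of lowest top-20 share, fluoxetine gave 0.08213 for Prlr and -0.3716 for Socs1, and the interaction 0.001048 (Prlr), 0.00904 (Cish), -0.02891 (Socs2) and -0.1862 (Jak3); Socs2 under fluoxetine was then -0.3096 (unadjusted p = 0.0506, edgeR).

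Over all 4 groups the median correlation of deviations was 0.0791 over 28 same-numbered pairs (12 above 0.1), and 4 of 27 libraries correlated best with their own number; within the FA diet all 7 pairs were above 0.1. In those 14 dams the replicate block called 0 genes for fluoxetine (941 at an unadjusted p of 0.05 or below, and 615 without the block, edgeR), changed no call of the 10 genes, and gave -0.2037 for Cish, which was -0.2067 in the same dams without it; Socs1 did not pass the filter there. Over all groups the replicate block gave 0.00294 (Jak2), -0.3166 (Cish) and -0.02392 (Tyk2) under fluoxetine, 0.03161 (Stat5a), 0.02978 (Stat5b), -0.02631 (Socs1), 0.05888 (Socs2) and 0.08243 (Tyk2) under FA, and 0.1654 (Prlr), 0.3206 (Cish) and -0.07076 (Jak3) for the interaction. Socs2 under fluoxetine was -0.6113 with the block (adjusted p = 0.579, edgeR).

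Leaving out 1 library at a time gave these ranges. Under fluoxetine they were -0.07261 to 0.04484 (Prlr), -0.121 to 0.008014 (Jak2), -0.1018 to 0.01023 (Stat5a), -0.003463 to 0.1275 (Cish) and -0.1788 to 0.1881 (Socs1, tested in 25 of 31). Under FA they were -0.0538 to 0.07083 (Prlr), -0.06223 to 0.05766 (Jak2), -0.008306 to 0.1137 (Cish), -0.126 to 0.02 (Socs2), -0.05797 to 0.03845 (Ghr), -0.1501 to 0.019 (Jak3) and -0.1305 to 0.01922 (Tyk2). For the interaction they were -0.2056 to 0.03806 (Prlr), -0.1958 to 0.03843 (Jak2), -0.06596 to 0.09867 (Stat5b), -0.2235 to 0.02467 (Cish), -0.1256 to 0.1518 (Socs2), -0.1116 to 0.08501 (Ghr) and -0.1915 to 0.19 (Jak3). The number of pairs that passed ranged from 3 (without dam 5 of breeder diet + fluoxetine) to 6 (without dam 13 of that group).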
